A study of Homo sapiens with 16 samples.

Results

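SpCas9-BE3 directed to the splice acceptor of PIK3CA exon 5 was followed by deep sequencing of genomic DNA. The libraries were chosen by their labels as the PIK3CA exon 5 genomic DNA samples, which are 4 of the 16 samples in the series. Of these, 2 came from HEK-293T cells transfected with SpCas9-BE3 and an sgRNA for this acceptor, and 2 came from HEK-293T cells transfected with a GFP plasmid as the control. HEK-293T is a transformed human embryonic kidney cell line. All cells were transfected by lipofection and harvested after 6 days of culture, and no selection of transfected cells is named for this line, so each library holds DNA of edited and unedited cells together. The control carries neither the editor nor the sgRNA, so effects of the sgRNA alone or of the nickase alone cannot be told apart from base editing in these libraries. The remaining 12 samples cover acceptors of RELA and BRCA2, and RELA exon 7 is the only other acceptor treated with the same editor.

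PIK3CA encodes p110α, the catalytic subunit of a phosphoinositide 3-kinase that signals growth and survival downstream of receptor tyrosine kinases. CRISPR-SKIP changes the guanosine just before an exon, a part of the splice acceptor, so that the exon may be left out of the transcript. SpCas9-BE3 joins the rat APOBEC1 cytidine deaminase to a SpCas9 that cuts only the strand bound by the guide and to an inhibitor of uracil glycosylase. The deaminase turns cytidine into uracil on the strand that the guide displaces, uracil is read as thymidine, and the inhibitor slows its removal by base excision repair. Here the displaced strand is the antisense strand, so an edited cytidine appears as G>A in the sense counts. Rat APOBEC1 is known to act more readily on a cytidine that follows a thymidine.

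The window and the guide are shown because both changed guanosines can be read from them. Coordinates are 1-based on GRCh38, positions are counted from the splice site, and there is no position 0.
PIK3CA exon 5 window, chr3:179203525-179203551, plus strand, changed guanosines in capitals: cccccttaatctcttacaGtatataaG
sgRNA spacer, chr3:179203528-179203547, minus strand, target cytidine in capitals: tataCtgtaagagattaagg

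The window of 27 positions runs from -19 in intron 4 to position 8 of the exon. The first capital is the intronic flanking G at -1, position 179203543 of chromosome 3, and its cytidine lies at protospacer position 5, where 1 is the base farthest from the PAM. The PAM, GGG on the antisense strand, lies at positions 179203525 to 179203527, and the nick by the D10A nickase is expected 3 bases from it, between -14 and -13. The second capital is exon position 8, at 179203551, 4 bases beyond the end of the protospacer. On the antisense strand the target cytidine follows an adenosine, whereas the cytidine opposite exon position 8 follows a thymidine. These are the only guanosines of the sense strand in the window, which also holds 8 cytidines, 8 adenosines and 9 thymidines. Exon 5 spans 179203544 to 179203789, is 246 bp long and encodes codons 272 to 353 as 82 whole codons.

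The highest depth in the window was 23296 and 22573 reads in the BE3 libraries and 17224 and 23274 reads in the control libraries. The libraries are called a and b as names only, because the count blocks do not say which transfection they hold. Non-reference reads outside the guanosines had a median over 25 positions of 0.416% and 0.409% in the BE3 libraries and of 0.401% and 0.258% in the control libraries. Control library a was higher than control library b at 26 of 27 positions, and the ratio of library medians, a over b, over all 27 positions was 1.58 in the control and 1.10 with SpCas9-BE3. Chi-square tests over all base counts found both pairs of duplicates further apart than sampling noise (BE3, p = 9.53e-07; control, p = 2.55e-113). Reads were amplified by PCR without molecular identifiers, so Wilson intervals and tests on reads cover counting error at most. Whether both reads of a pair were counted is not given in the sources used here. If they were, these intervals and tests take them as separate reads. An exact permutation test of 2 libraries against 2 cannot go below p = 0.333, and the models that use the spread between duplicates rest on 2 residual degrees of freedom.

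At the intronic flanking G, SpCas9-BE3 replaced guanosine with all 3 other bases. G>A was the most frequent product, G>C was frequent as well and G>T was the rarest. The BE3 libraries held 5956 and 5832 reads with A, or 26.3% (95% Wilson interval, 25.7 to 26.8) and 26.5% (25.9 to 27.1), against 61 and 28 reads, or 0.354% and 0.120%, in the control libraries. The BE3 libraries held 3478 and 3079 reads with C, or 15.3% (14.9 to 15.8) and 13.99% (13.5 to 14.5), against 15 and 3 reads, or 0.0871% and 0.0129%, in the control libraries. The BE3 libraries held 620 and 534 reads with T, or 2.73% (2.53 to 2.95) and 2.43% (2.23 to 2.64), against 41 and 18 reads in the control libraries. No product overlapped between the groups, and the G>C intervals of the BE3 libraries did not overlap each other, whereas their G>A intervals did.

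The G>A share averaged 26.4% ± 0.161 with SpCas9-BE3, against 0.237% ± 0.165 for the control (SD, n = 2 each), and the means differed by 26.1 percentage points. A two-tailed Wald test of binomial proportions, run on the pooled reads, gave z = 110.1 for this product (95% confidence interval of the pooled difference, 25.7 to 26.6 percentage points). G>C averaged 14.7% ± 0.955 with SpCas9-BE3 (SD, n = 2), and the Wald test of its difference from the control, 14.6 percentage points, gave z = 79.9 (95% confidence interval, 14.3 to 14.96). G>T averaged 2.58% ± 0.218 with SpCas9-BE3 and 0.158% ± 0.114 without it (SD, n = 2 each), and differed by 2.42 percentage points (95% confidence interval, 2.28 to 2.59; z = 29.97). Because the Wald test leaves out the spread between duplicates, a quasi-binomial model over the libraries was fitted beside it, and its F test gave p = 0.000781 for G>A, p = 0.00163 for G>C and p = 0.00961 for G>T. The non-G share as a whole was 44.3% and 42.9% with SpCas9-BE3 and 0.679% and 0.211% in the control (quasi-binomial model, p = 0.00109).

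At exon position 8, the second guanosine changed as well, though with another mixture of products. The BE3 libraries held 2451 and 2263 reads with A, or 10.6% (95% Wilson interval, 10.2 to 10.998) and 10.1% (9.70 to 10.5), against 2 and 9 reads in the control libraries. The BE3 libraries held 223 and 228 reads with C, or 0.964% and 1.02%, against 2 and 4 reads in the control libraries. The BE3 libraries held 183 and 161 reads with T, or 0.791% and 0.718%, against 42 and 18 reads, or 0.244% and 0.0774%, in the control libraries. All 3 products were higher in both BE3 libraries than in both control libraries, with the smallest gap for G>T.

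G>A at exon position 8 differed by 10.3 percentage points (95% confidence interval of the pooled difference, 10.0 to 10.6; Wald test of binomial proportions, z = 66.3; quasi-binomial model, p = 0.00048). G>C differed by 0.976 percentage points (95% confidence interval, 0.883 to 1.07; z = 19.6; quasi-binomial model, p = 0.000503). G>T differed by 0.594 percentage points (95% confidence interval, 0.519 to 0.695; z = 12.99), and here the quasi-binomial model gave p = 0.0476. This guanosine is base 2 of codon 274, and by the annotation G8A, G8C and G8T, counted from the first exonic base, encode R274K, R274T and R274I. The counts are per position and do not tell which reads carried changes at both guanosines.

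**Figure D1:**
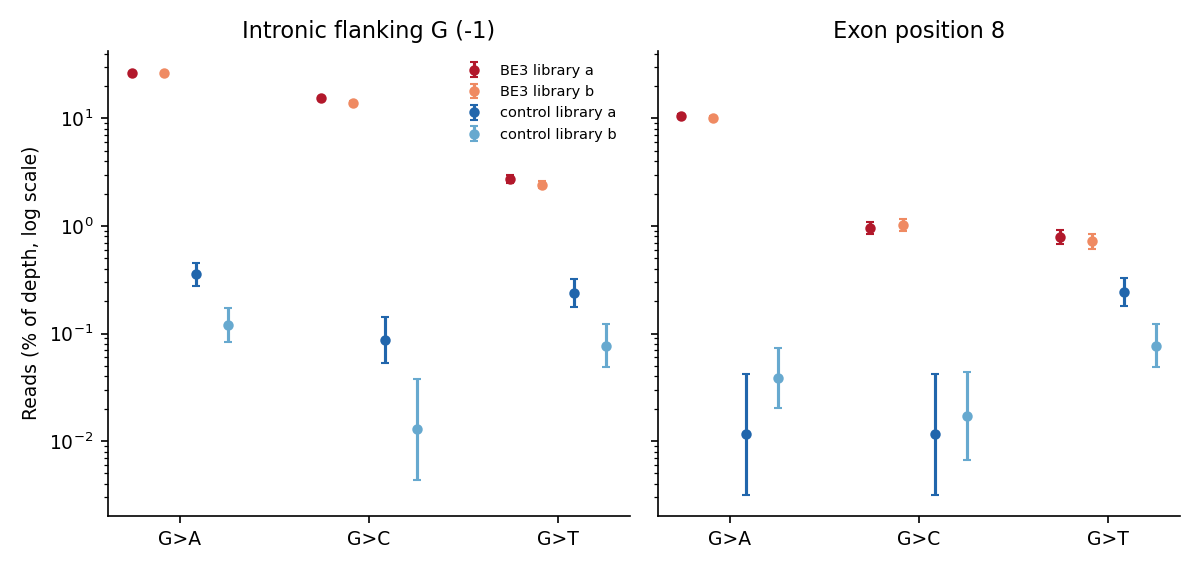
Reads with each substitute base as a percent of depth (log scale) at the intronic flanking G and at exon position 8, with BE3 libraries in red and control libraries in blue; points are single libraries and bars are 95% Wilson intervals. At -1 the BE3 libraries held 26.3% and 26.5% G>A, and at exon position 8 they held 10.6% and 10.1%, all above both control libraries.

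The mixture of products set the guanosines apart within the same libraries. Of the changed reads at -1, 59.2% and 61.7% were G>A in BE3 libraries a and b, 34.6% and 32.6% were G>C, and 6.17% and 5.65% were G>T. Of the changed reads at exon position 8, 85.8% and 85.3% were G>A, 7.81% and 8.60% were G>C, and 6.41% and 6.07% were G>T. Both libraries thus had a larger C share and a smaller A share at -1 than at exon position 8.

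The odds of G>C among changed reads were 6.25 times as high at -1 as at exon position 8 in BE3 library a (95% confidence interval, 5.41 to 7.24; Fisher's exact test, p = 1.22e-205). They were 5.14 times as high in BE3 library b (4.46 to 5.95; Fisher's exact test, p = 1.39e-156). A read changed at both guanosines enters both sides of this test, which takes them as separate reads. How many such reads there were cannot be told from counts per position, so these p values and intervals are nominal. For G>T the odds ratios were 0.960 (0.808 to 1.15; Fisher's exact test, p = 0.629) and 0.927 (0.771 to 1.12; p = 0.422), so that a difference in the T share was not detectable at this depth. These odds ratios are as counted. With the mean control share subtracted, those for G>T were 1.14 and 1.12, in the other direction (Fisher's exact test, p = 0.182 and p = 0.296). Those for G>C were then 6.29 and 5.17. Over depth and as counted, G>A was 2.55 ± 0.104 times as frequent at -1 as at exon position 8. G>T was 3.42 ± 0.0535 times as frequent and G>C 14.8 ± 1.52 times (SD, n = 2 BE3 libraries for each ratio).

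At the intronic flanking G of RELA exon 7, treated with the same editor and another sgRNA, the BE3 libraries held 6.87% and 5.65% G>A, 0.576% and 0.418% G>C, and 0.243% and 0.236% G>T. Of the changed reads, G>C made up 33.6% at PIK3CA exon 5 and 7.06% at RELA exon 7 on average, a difference of 26.5 percentage points (quasi-binomial model over the 4 BE3 libraries, p = 0.00376). Without RELA exon 7 BE3 library a or b, the quasi-binomial model gave p = 0.0734 and p = 0.0697. G>A made up 60.5% at PIK3CA exon 5 and 89.5% at RELA exon 7, and the difference in this share, PIK3CA exon 5 minus RELA exon 7, was -28.99 percentage points (quasi-binomial model, p = 0.00481). The gain in G>A over the control was 26.1 percentage points at PIK3CA exon 5 and 6.15 percentage points at RELA exon 7. On the odds scale the interaction of exon and treatment did not pass for G>A (quasi-binomial model over 8 libraries, p = 0.216), whereas a model on the scale of percentage points gave p = 2.65e-05. Gene, guide and amplicon differ together between the exons and cannot be told apart.

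**Figure D2:**
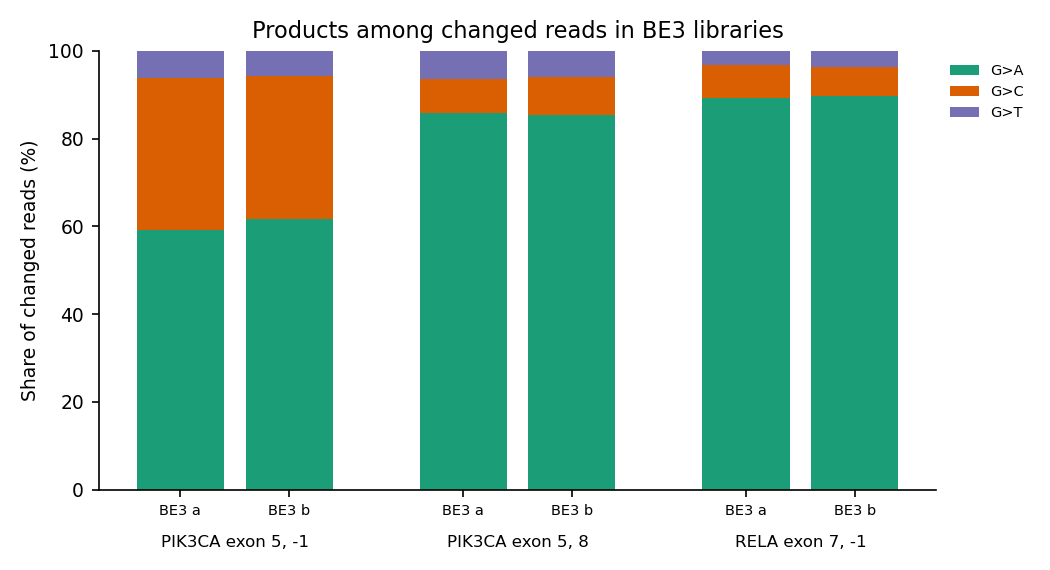
Share of G>A, G>C and G>T among changed reads (percent) in each BE3 library at -1 and exon position 8 of PIK3CA exon 5 and at -1 of RELA exon 7. G>C makes up 34.6% and 32.6% at -1 of PIK3CA exon 5, against 7.81% and 8.60% at exon position 8.

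Across the whole window, edgeR's quasi-likelihood test on non-reference and reference counts called 4 of 27 positions (14.8%) at an adjusted p under 0.05, all higher with SpCas9-BE3. These were both guanosines, the adenosine at -12 and the cytidine at -9. The guanosines gave adjusted p = 1.7e-10 at -1 and adjusted p = 9.89e-16 at exon position 8 by edgeR. A quasi-binomial model fitted to each position by itself called 2 of 27 after Benjamini-Hochberg adjustment, both guanosines. In it, -12 and -9 gave adjusted p = 0.175 and 0.121 (quasi-binomial model). The other 25 positions differed by -0.210 to 0.448 percentage points, and 20 of them overlapped between the groups. The first exonic base, a thymidine, held 0.398% and 0.424% non-reference reads with SpCas9-BE3 and 0.255% and 0.258% in the control, and was not called.

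**Figure D3:**
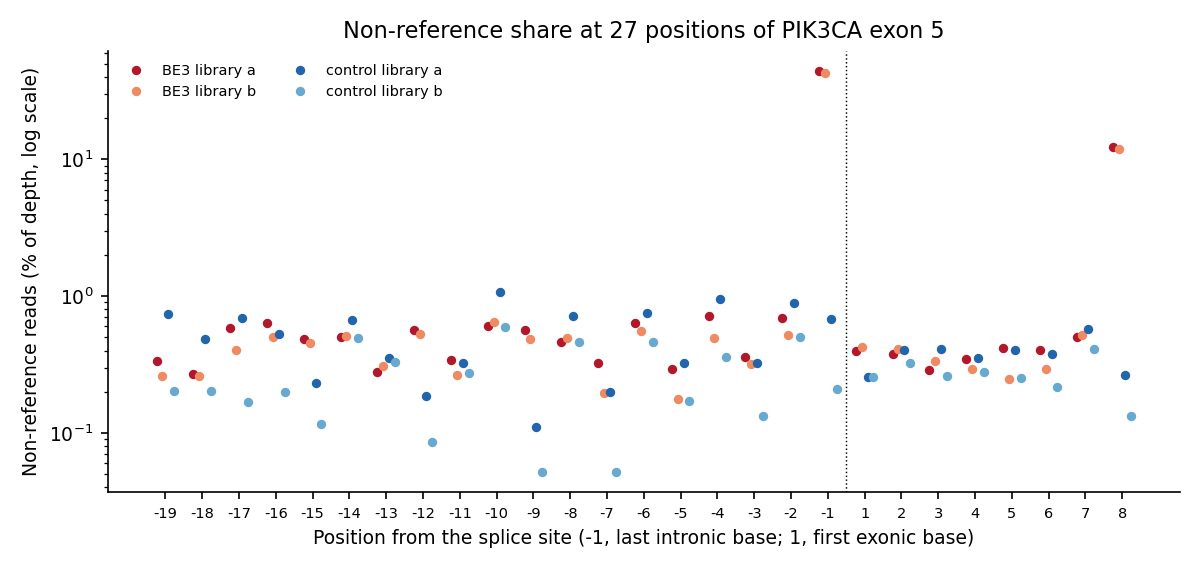
Non-reference reads as a percent of depth (log scale) at each position from the splice site, with a point for each BE3 (red) and control (blue) library and a dotted line at the splice site. Only -1 and 8 exceed 10% in the BE3 libraries; at 20 of the other 25 positions the groups overlap.

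A scan of each substitute base by itself tested 81 products, of which 9 (11.1%) passed in edgeR's quasi-likelihood test, all higher with SpCas9-BE3. They were all 3 products at -1, G>A and G>C at exon position 8, and 4 rare products within the protospacer, between -15 and -7. The protospacer holds 19 of the 25 positions other than the guanosines, so the place of these 4 within it says little. G>T at exon position 8 did not pass here (edgeR, adjusted p = 0.0819). The quasi-binomial model fitted to each product by itself called 7 of 81, all among these 9, and left out G>T at -1 and C>G at -7. The number at an unadjusted p under 0.05 was 16. With BE3 library a or b left out, 5 products passed, and with control library a or b left out, 20 or 18 passed. Where a control library is left out, the lone one is assumed to vary like the BE3 libraries, which lay closer together. Some of the products called without control library b were lower with SpCas9-BE3. Where a BE3 library is left out, the lone one is assumed to vary like the control libraries, which lay far apart. G>T at -1 then gave adjusted p = 0.203 and 0.201 in edgeR, with differences of 2.27 and 2.58 percentage points.

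The 4 rare products were each a single substitute base at its position, found at 3 of the 8 sense cytidines and 1 of the 8 adenosines. With so few products, a preference for either base cannot be read from this. At -9, C>G was read 100 and 89 times in the BE3 libraries, or 0.438% and 0.402%, against 1 and 0 times in the control libraries (edgeR, adjusted p = 0.0064). At the same cytidine, C>T was read 13 and 9 times with SpCas9-BE3, against 10 and 8 times in the control libraries. At -12, A>G was read 111 and 104 times, or 0.484% and 0.468%, in the BE3 libraries, against 16 and 19 times, or 0.0929% and 0.0816%, in the control libraries (edgeR, adjusted p = 0.0112). With BE3 library a or b left out, C>G at -9 was called in edgeR, and A>G at -12 gave adjusted p = 0.217 and 0.188 with differences of 0.380 and 0.397 percentage points, against 0.388 with all libraries.

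C>T passed at 1 of the 8 sense cytidines, a share close to the 11.1% of all products. At -15 it was read 97 and 84 times with SpCas9-BE3, or 0.418% and 0.373%, against 11 and 17 times, or 0.0639% and 0.0730%, in the control (edgeR, adjusted p = 0.0377). At -7, C>G was read 21 and 14 times in the BE3 libraries and in neither control library, which allows a share of up to 0.0223% and 0.0165% there by the Wilson interval (edgeR, adjusted p = 0.0377). C>T at -7 was read 41 and 25 times with SpCas9-BE3, against 6 and 8 times in the control, and did not pass (edgeR, adjusted p = 0.107). With BE3 library a or b left out, C>T at -15 gave adjusted p = 0.779 and 0.65 and C>G at -7 gave adjusted p = 0.19 and 0.114 in edgeR.

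Further products at the cytidines did not pass the scan, whether or not the groups overlapped. C>G at -3 was read 32 and 26 times with SpCas9-BE3, against 4 and 2 times in the control, and missed the threshold (edgeR, adjusted p = 0.0656). C>A at -16 was 0.503% and 0.359% with SpCas9-BE3, against 0.337% and 0.0559% in the control, without overlap. C>A at -17 was 0.374% and 0.239% with SpCas9-BE3, against 0.360% and 0.0473% in the control, so that the groups overlapped there. At -19 and -18, inside the PAM, the non-reference shares of the BE3 libraries lay between those of the control libraries. Without the guanosines, 13 of 75 products were higher in both BE3 libraries than in both control libraries, 5 were lower and 57 overlapped. An exact permutation test of 2 libraries against 2 cannot go below p = 0.333, so lack of overlap by itself does not mark a change.

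**Figure D4:**
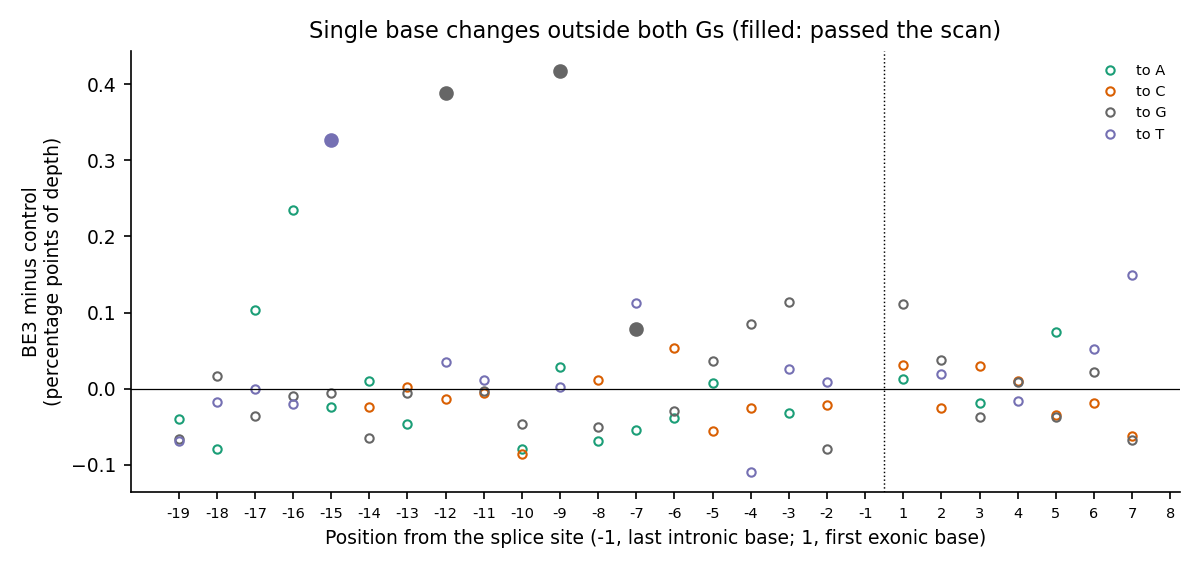
Difference of mean shares, BE3 minus control (percentage points of depth), for the 75 single base changes outside both guanosines by position from the splice site; colours give the substitute base and filled points passed edgeR's test over 81 products. C>G at -9 stands at 0.418 and A>G at -12 at 0.388 percentage points, while most points lie near 0.

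Depth along the window was a readout of its own. In the BE3 libraries depth fell within the protospacer and partly came back beyond the splice site, and in the control libraries it stayed level. Lowest depth was 22676 reads at -2 in BE3 library a and 21980 reads at -5 in BE3 library b, which is 620 and 593 reads below the highest depth of the same library. In the control libraries the whole range was 17 and 26 reads.

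Reads missing at a position were counted as the highest depth of the library minus the depth there, and the base counts do not record what those reads held. At -15, 0.408% and 0.297% of reads were missing with SpCas9-BE3, against 0.00581% and 0% in the control. At -10, 2.10% and 1.95% were missing with SpCas9-BE3, against 0.0116% and 0.00430% in the control. The share reached its highest values, 2.66% at -2 in BE3 library a and 2.63% at -5 in BE3 library b, on the intronic side of the splice site.

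At the intronic flanking G, 618 and 558 reads were missing in the BE3 libraries, or 2.65% and 2.47%, against 2 and 7 reads, or 0.0116% and 0.0301%, in the control libraries. Missing reads averaged 2.56% ± 0.128 with SpCas9-BE3 and 0.0208% ± 0.0131 without it (SD, n = 2 each). The difference of 2.54 percentage points gave p = 0.00107 in the quasi-binomial model. Over the same highest depth, G>T reads made up 2.66% and 2.37% in the BE3 libraries. At the first exonic base the share dropped to 1.94% and 1.67% with SpCas9-BE3, against 0.0116% and 0.0301% in the control. At exon position 8 it was 0.695% and 0.598% with SpCas9-BE3, against 0.0174% and 0.0430% in the control.

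The steps between neighbouring positions placed these changes. Between -15 and -14, next to the expected nick, depth fell by 119 reads in both BE3 libraries, the largest fall in each. The control libraries also had their largest fall there, where depth fell by 13 and 12 reads, and regained 11 and 12 at the next base. The largest rise was 167 and 180 reads in the BE3 libraries, between -1 and the first exonic base, where neither control library changed. Between -16 and -10, depth fell by 466 reads in BE3 library a and fell by 431 reads in BE3 library b. Between -10 and -1 it decreased by 128 reads in BE3 library a and decreased by 117 reads in BE3 library b, and 456 and 423 reads were regained between -1 and exon position 8.

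By edgeR's quasi-likelihood test on missing and present reads, 25 of 27 positions (92.6%) were called with more missing reads with SpCas9-BE3. None was called with fewer. The exceptions were -19 and -18, and at -18 no read is missing by definition because depth was highest there in all 4 libraries. At -19, 0.0859% and 0.0975% of reads were missing with SpCas9-BE3, against 0.0987% and 0.112% in the control. Neighbouring positions share reads, so these calls are not separate events. At RELA exon 7, 0.170% and 0.0928% of reads were missing at -1 with SpCas9-BE3, against 0.0620% and 0.0276% in the control. The difference of 0.0864 percentage points there was smaller than that at PIK3CA exon 5. Tested on the odds scale, the effects at the exons differed (interaction in the quasi-binomial model over 8 libraries, p = 0.00551, and 0.0276 after Benjamini-Hochberg adjustment over 5 readouts).

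**Figure D5:**
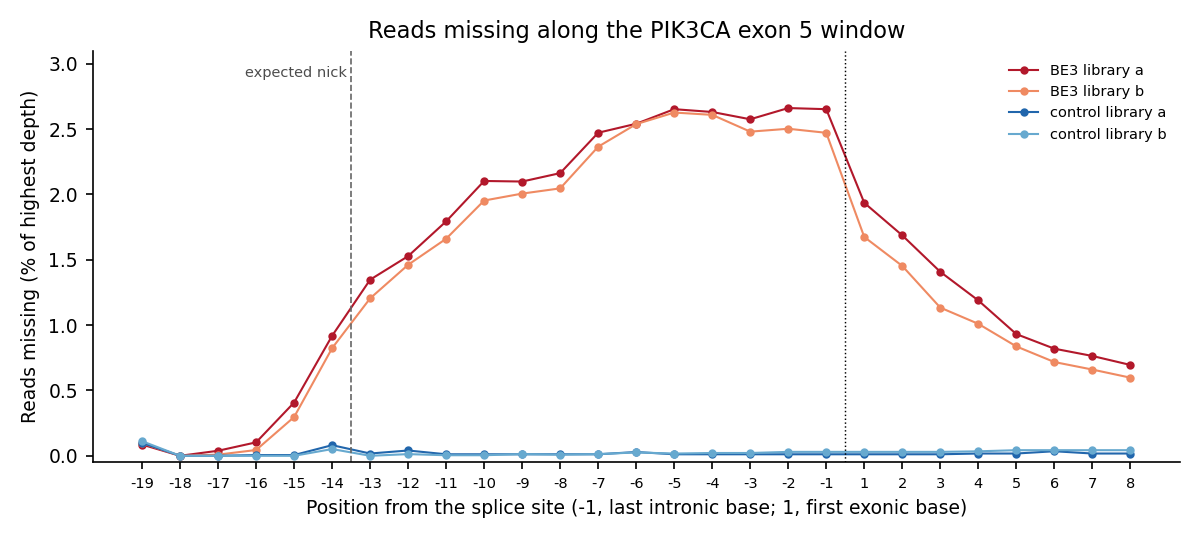
Reads missing at each position, as a percent of the highest depth of the same library, for BE3 (red) and control (blue) libraries; the dotted line is the splice site and the dashed line the expected nick. The BE3 libraries reach 2.66% and 2.63% within the protospacer, and the control libraries stay near 0.

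Set over the highest depth, so that missing reads are included, unchanged G made up 54.2% and 55.7% at the intronic flanking G in the BE3 libraries, against 99.3% and 99.8% in the control libraries. At exon position 8 it made up 87.0% and 87.7% in the BE3 libraries, against 99.7% and 99.8% in the control libraries.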

How the data were processed

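Genomic DNA amplicons from duplicate transfections were paired-end sequenced (MiSeq). The authors aligned reads with Bowtie2 and derived the base distribution. Versions in the submitters' processing notes are Bowtie2 2.3.3.1 and SAMtools 1.6, with GRCh38 as build. How gapped or low-quality bases were handled is not given in the sources used here. The deposited values used are whole-number counts made by the authors, namely the depth and the reads of each base at 27 positions. The other deposited cells, such as percentages, the authors' means and row labels, were not used as measurements. All 108 depth cells equalled the sum of their bases.

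The window was matched to GRCh38, where it occurs 1 time on chromosome 3, and to the MANE Select transcript of GENCODE. Shares are reads over depth in a library. Groups were compared by the two-tailed Wald test that the methods of the study name, by a quasi-binomial model (R 4.3.3) and, over all positions or products, by edgeR 4.0.16 with a term per library and Benjamini-Hochberg adjustment, at an adjusted p under 0.05 and at least 100 reads of depth. The scan code was tested on simulated non-reference counts with the same spread in all libraries. Unequal spread between the groups, as seen in these libraries, was not simulated, nor were counts of single products or of missing reads. Alternatives included DESeq2 1.42.0, other denominators and leaving out each library. Positions named are both guanosines, the first exonic base, sense cytidines and called positions. Members, lists and tests were chosen with earlier results of these data known.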

Additional observations from a re-analysis of the deposited data

Results flagged for a closer look

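The effect of SpCas9-BE3 at the intronic flanking G was tested for a difference between PIK3CA exon 5 and RELA exon 7 for 5 readouts. The test was an exon-by-treatment interaction on the odds scale in a quasi-binomial model of 8 libraries, and 4 readouts differed before adjustment. Gains are given below in percentage points, a scale on which only G>A was tested. Only G>A was planned, and the other readouts were added after the values were seen. G>T gained 2.42 percentage points at PIK3CA exon 5 and 0.116 at RELA exon 7 (quasi-binomial model, p = 0.0111, adjusted p = 0.0278). Depth lost at this base rose by 2.54 and 0.0864 percentage points over the control at the same exons (quasi-binomial model, p = 0.00551, adjusted p = 0.0276). G>C gained 14.6 percentage points at PIK3CA exon 5 and 0.464 at RELA exon 7 (quasi-binomial model, p = 0.0488), and the non-G share gained 43.2 and 6.73 percentage points (quasi-binomial model, p = 0.0396). The last comparisons did not pass after adjustment over the 5 readouts (adjusted p = 0.061 for both). Without RELA exon 7 control library b, G>T gave p = 0.073 in the quasi-binomial model, whereas depth remained under p = 0.05 whichever library was left out.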

How the results depend on the processing

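At both guanosines the differences kept their direction under each alternative. In the quasi-binomial model, G>T did not pass after Benjamini-Hochberg adjustment over 81 products (adjusted p = 0.0973 at -1 and 0.269 at exon position 8). Before adjustment, all differences at both guanosines gave p under 0.05 in it. They also passed the Wald test with other denominators and without each library, which says little because that test leaves out the spread between duplicates. In edgeR, G>T at -1 was not called without BE3 library a or b. Fitted to each feature by itself, an alternative added after seeing the data, the quasi-binomial model called 2 of 27 positions, 7 of 81 products and 23 of 27 depths. Over 81 products, 5 passed after Bonferroni adjustment (C>G at -9, and G>A and G>C at both guanosines). Without a replicate, the count ranged from 5 (either BE3 library left out) to 20 (control library a left out; 18 without control library b), and the count over 27 positions from 4 to 9. With DESeq2, 11 products passed, G>T at exon position 8 among them (adjusted p = 0.0183). The difference in G>C share between PIK3CA exon 5 and RELA exon 7 ranged from 25.5 to 27.5 percentage points without a library, and gave p = 0.0734 and p = 0.0697 in the quasi-binomial model without RELA exon 7 BE3 library a or b. On the scale of percentage points, the exons differed in G>A gain by 19.99 (p = 2.65e-05 in the quasi-binomial model), against p = 0.216 on the odds scale. The depth scan called 22 to 25 positions under its alternatives. Against the mean of both ends of the window, 1 of the called positions, -19, had fewer missing reads with SpCas9-BE3. Depth lost at -1 was 2.54 percentage points against the highest depth and kept its call with other baselines, though with smaller values. It was 2.10 percentage points against a line between both ends of the window and 2.20 against their mean. Without a library it ranged from 2.45 to 2.63 percentage points. A coverage minimum of 20000 reads left 0 positions, since control library a was shallower. No paired analysis was possible because the count blocks carry no replicate number. A control count of 0 allows up to 0.0223% in control library a.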
